A study of Mus musculus with 18 samples.

Results

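Mitosis genes are described here across satellite cells of 2 genotypes and 3 times: 40 genes that act in chromosome segregation, from mitotic cyclins to cytokinesis factors. They were listed by function and not picked by a measured value, although earlier results of these data were known. Of the 40 genes, 39 were measured, among 18194 genes that have a probe set with a single gene symbol. Ccnb1 had no such probe set and was not analysed here. Each gene was read by 1 probe set, that with the highest mean over the 17 arrays used. RNA came from cells sorted by FACS for syndecan-3 from tibialis anterior muscle of female mice, whose age the labels give as 3 to 6 months and the study's methods for the sorted cells as 3 months. The Sdc4-/- mice (homozygous deletion of syndecan-4, C57Bl/6) gave 3 arrays each, from uninjured muscle and from 12 h and 48 h after injury, and the wild type (WT) mice (C57Bl/6 x DBA2, B6D2F1/J) gave 2, 3 and 3 arrays at these times. Muscle was injured with 1.2% barium chloride. The deletion is present in every cell of the Sdc4-/- mice, and strain and genotype differ together and cannot be told apart. The study left out 1 WT uninjured replicate that clustered with the WT 12 h arrays, without giving its number, and it was taken here to be replicate 3, since the study's clustering shows replicates 1 and 2. Whether the samples came from separate animals is not stated, so that p-values measure only the spread between these samples. All levels below are log2 values, on which a difference of 1 is a doubling, and levels of different genes are not compared with each other, because each probe set has its own brightness.

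Mitotic entry is driven by cyclin A2 and cyclin B bound to the kinase Cdk1, and ends when the anaphase-promoting complex (APC/C) with its activator Cdc20 has the cyclins destroyed. Transcripts of most of these genes are made in the late part of the cell cycle and are low in resting cells. Satellite cells, the stem cells of skeletal muscle, rest outside the cell cycle in uninjured muscle and enter it after injury. The study sampled 12 h as a time of commitment and 48 h as a time of proliferation, and used Sdc4-/- cells as cells that do not activate properly. Many mitotic genes share 2 promoter elements, a CCAAT box, bound by NF-Y, and the cell cycle genes homology region (CHR), bound by the DREAM complex in resting cells.

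Promoters of some members are shown with these elements, as many of the genes share them although the list was not chosen by sequence. RefSeq promoter windows (GRCm38.p6, 250 bases before to 50 bases after the start) were found for 35 of the 40 genes. TTTGAA, the CHR, stood on either strand in 26 of these 35 genes (76.3% of their 38 windows), and in 17.9% of all 32851 windows. CCAAT stood on either strand in 28 of 35 genes (81.6% of their windows), and in 37.4% of all windows. Both were present in 24 genes (71.1% of the 38 windows) and in 6.95% of all windows. A variant of the CHR, TTCGAA, stood in 3 genes, Bub1, Bub1b and Top2a, and in 1.56% of all windows, and is not marked below. Among the members without TTTGAA were Birc5, Bub1, Cenpe and Nek2. Of these only Birc5 is shown, although Bub1, Cenpe and Nek2 were also called between genotypes. Smc2, Kif11 and Ube2c hold TTTGAA and were called between genotypes but are not shown. Top2a and Cdk1 are shown although they were called in no comparison. Capitals mark TTTGAA or TTCAAA and CCAAT or ATTGG, which share a base in Cdca8, where a capital run holds both. Each sequence runs from 5′ to 3′ on the strand of the gene.
Mki67, chr7:135716330-135716629, minus strand: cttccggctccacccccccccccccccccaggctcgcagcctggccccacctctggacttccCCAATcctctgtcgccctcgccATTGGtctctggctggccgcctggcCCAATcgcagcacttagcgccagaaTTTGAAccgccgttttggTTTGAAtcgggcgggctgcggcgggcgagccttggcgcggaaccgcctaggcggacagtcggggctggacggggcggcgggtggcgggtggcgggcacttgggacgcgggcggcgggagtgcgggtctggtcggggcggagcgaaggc
Cdca8, chr4:124936868-124937167, minus strand: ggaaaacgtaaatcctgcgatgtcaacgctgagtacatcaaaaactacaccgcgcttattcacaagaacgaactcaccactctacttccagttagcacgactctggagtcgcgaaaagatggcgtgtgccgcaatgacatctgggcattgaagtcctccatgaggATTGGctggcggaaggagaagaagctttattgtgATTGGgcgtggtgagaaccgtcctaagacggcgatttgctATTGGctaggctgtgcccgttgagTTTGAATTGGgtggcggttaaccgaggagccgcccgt
Top2a, chr11:99024140-99024439, minus strand: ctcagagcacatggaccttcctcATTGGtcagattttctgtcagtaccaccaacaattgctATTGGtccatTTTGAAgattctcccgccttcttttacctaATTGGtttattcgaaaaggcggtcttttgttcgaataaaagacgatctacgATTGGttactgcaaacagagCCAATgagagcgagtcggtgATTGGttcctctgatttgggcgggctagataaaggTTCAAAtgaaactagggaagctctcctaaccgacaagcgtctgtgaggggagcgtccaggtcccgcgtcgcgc
Cdk1, chr10:69352863-69353162, minus strand: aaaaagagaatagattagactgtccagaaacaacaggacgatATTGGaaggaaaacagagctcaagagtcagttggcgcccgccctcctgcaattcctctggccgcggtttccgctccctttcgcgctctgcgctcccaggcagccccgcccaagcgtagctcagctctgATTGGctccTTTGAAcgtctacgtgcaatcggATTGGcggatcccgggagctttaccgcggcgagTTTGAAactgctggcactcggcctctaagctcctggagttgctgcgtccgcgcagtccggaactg
Bub3, chr7:131560120-131560419, plus strand: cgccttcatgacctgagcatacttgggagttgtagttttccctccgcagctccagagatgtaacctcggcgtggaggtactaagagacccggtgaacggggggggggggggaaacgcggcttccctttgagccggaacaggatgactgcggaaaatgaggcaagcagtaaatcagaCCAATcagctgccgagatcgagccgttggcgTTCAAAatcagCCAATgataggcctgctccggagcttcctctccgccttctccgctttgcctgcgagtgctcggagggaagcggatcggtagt
Birc5, chr11:117848987-117849286, plus strand: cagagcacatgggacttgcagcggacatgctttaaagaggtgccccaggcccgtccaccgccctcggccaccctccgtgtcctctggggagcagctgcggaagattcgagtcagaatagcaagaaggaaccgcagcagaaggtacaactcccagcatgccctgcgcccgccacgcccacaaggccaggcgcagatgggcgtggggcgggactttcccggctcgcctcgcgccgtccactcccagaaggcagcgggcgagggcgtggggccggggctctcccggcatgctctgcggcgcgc
The Mki67, Top2a and Cdk1 windows hold 2 CHR matches each and those of Cdca8 and Bub3 hold 1, whereas that of Birc5 holds none and no CCAAT. A match describes letters in the window and not a bound site.

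The labelled cell type was set against marker genes before the results. Of 16 satellite cell markers, 0 had a group mean above a log2 value of 5 in WT 12 h arrays, and 3 to 4 in each other group. The mean of the 16 was 3.31 to 3.72 on WT 12 h arrays and 3.55 to 4.36 on the others. Pax7, the transcription factor that defines these cells, averaged 2.40 to 2.60 in 5 groups, at the background of the arrays, and 4.87 in WT uninjured arrays. Markers of other cell types were high, among them those of monocytes and macrophages. The mean of these 13 genes was 8.85 to 9.70 on the Sdc4-/- uninjured arrays, 7.67 to 8.62 at 12 h and 9.78 to 9.97 at 48 h, and 5.32 to 8.30 on the WT uninjured arrays, 3.61 to 4.17 at 12 h and 9.49 to 9.59 at 48 h. Neutrophil markers (9 genes) averaged 5.89 to 7.52 on the Sdc4-/- uninjured arrays, 4.86 to 6.16 at 12 h and 3.61 to 3.93 at 48 h, and 4.64 to 5.08 on the WT uninjured arrays, 3.40 to 5.17 at 12 h and 3.98 to 4.39 at 48 h. The 8 measured lymphocyte markers stayed at 2.66 to 3.11.

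Markers of vessels and connective tissue reached their highest levels on uninjured arrays, above all in WT cells. Endothelial markers (10 genes) averaged 4.90 to 5.69 on the Sdc4-/- uninjured arrays, 3.44 to 4.82 at 12 h and 3.35 to 4.67 at 48 h, and 5.88 to 7.43 on the WT uninjured arrays, 3.13 to 4.27 at 12 h and 3.04 to 3.62 at 48 h. Fibroblast markers (8 genes) averaged 4.65 to 6.65, 3.46 to 5.95 and 2.98 to 4.72 on the Sdc4-/- arrays at these times, and 7.43 to 8.21, 3.54 to 4.46 and 3.12 to 3.80 on the WT arrays. Smooth muscle and pericyte markers (8 genes) averaged 5.14 to 6.94, 4.17 to 4.58 and 3.92 to 5.47 on the Sdc4-/- arrays, and 7.24 to 8.17, 4.45 to 5.27 and 4.13 to 4.93 on the WT arrays. In WT cells 6 of 10 endothelial, 5 of 8 fibroblast and 5 of 8 smooth muscle and pericyte markers were called lower at 12 h than uninjured, and 7, 6 and 5 at 48 h. Of all probe sets 14.2% were called lower in WT cells at 12 h and 7.12% at 48 h. Of the same markers 2, 0 and 1 were called lower at 12 h in Sdc4-/- cells, and 1, 2 and 1 at 48 h. The shares of all probe sets there were 5.15% and 2.31%. These markers thus moved with every comparison of injured with uninjured WT cells below, and their part in the values of the mitosis genes was not tested.

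Fewer cells of a type and less RNA per cell cannot be told apart in such samples. The WT 12 h arrays stood apart from the rest: 2832 to 3982 probe sets exceeded 5, against 5076 to 7864 on the other arrays used, and the hybridization controls, labelled RNA added to every array, averaged 13.54 to 14.30, against 7.86 to 12.50. The 3' Actb control was 3.98 on WT 12 h replicate 2 and 8.37 on replicate 3, and at least 11.57 on the others. Sdc4 itself was read by 2 probe sets, which differed in how the Sdc4-/- arrays read. That with the higher mean, 1448793_a_at, was 3.39 to 6.53 on the 9 Sdc4-/- arrays, and 3.71 to 5.20 on WT uninjured and 12 h arrays and 6.88 to 8.11 on WT 48 h arrays, so that a signal remained on arrays labelled as deleted. The other, 1417654_at, was 2.41 to 2.60 on the 9 Sdc4-/- arrays, and 2.36 to 3.64 on WT uninjured and 12 h arrays and 5.59 to 7.62 on WT 48 h arrays. On both, the WT 48 h arrays lay above all Sdc4-/- arrays, and those of WT uninjured and 12 h cells overlapped them. Where these probe sets lie relative to the deleted sequence was not analysed here.

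Most mitosis genes stayed near the background of the arrays. Of the 39 measured genes, 19 were at or under 5 on every array, 11 of them under 4 throughout, and 0 were above 5 on all 17 arrays. A mean of at least 4 was reached by 12 genes: Cdc20, Bub3, Mad2l1, Cdca8, Cenpa, Tpx2, Prc1, Hmmr, Top2a, Smc2, Smc4 and Mki67. By role, all 6 genes of chromosome condensation and structure exceeded 5 on at least 1 array, as did 4 of 5 of spindle assembly and midzone, 3 of 5 of the cyclin-CDK and APC/C group, 2 of 5 of the spindle checkpoint, 2 of 5 kinesins, 1 of 4 mitotic kinases, 1 of 3 of the chromosomal passenger complex, 1 of 3 of centromere and kinetochore and 0 of 3 of cytokinesis. The number of mitosis genes above 5 was 8 to 9 on the Sdc4-/- uninjured arrays, 6 on each at 12 h and 8 to 11 at 48 h. It was 7 on both WT uninjured arrays, 0 to 3 at 12 h and 6 to 8 at 48 h. Of all probe sets, 32.95% exceeded 5 on at least 1 array.

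**Figure D1:**
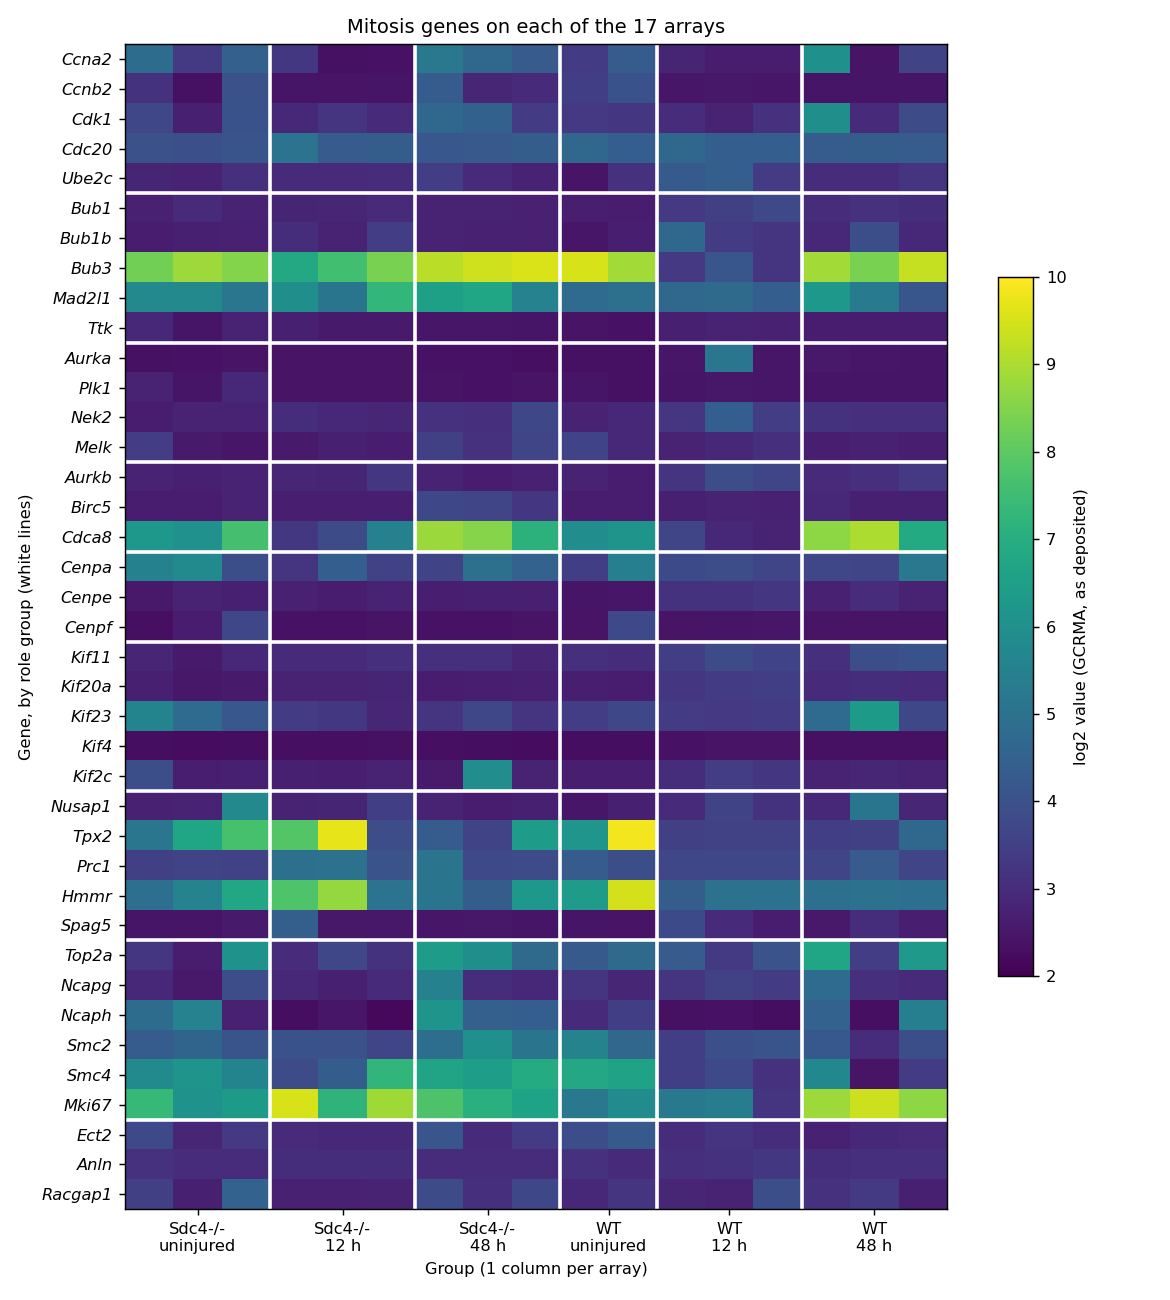
Log2 values of the 39 mitosis genes (rows, in role groups split by white lines) on the 17 arrays (columns, by group), from dark at 2 to yellow at 10. Bub3, Mki67 and Cdca8 are bright on most arrays, Bub3 and Cdca8 are dark in WT 12 h arrays, and 19 genes stay at or under 5 on every array.

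**Figure D2:**
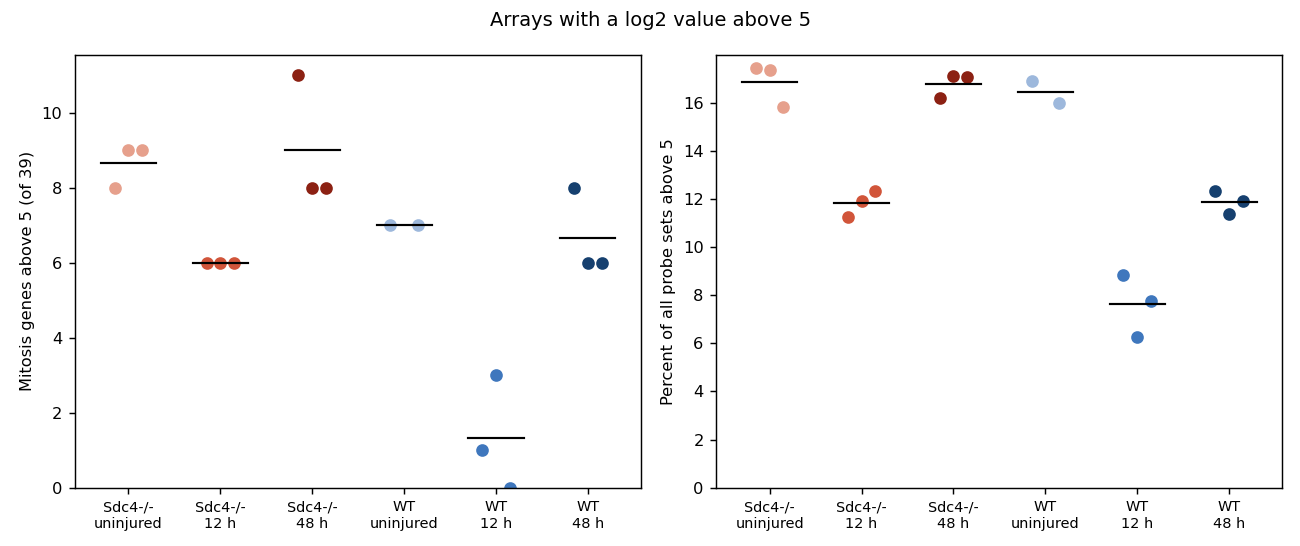
Number of the 39 mitosis genes (left) and percent of all probe sets (right) with a log2 value above 5 on each array, with points for arrays and lines for group means. WT 12 h arrays have 0 to 3 such genes, and the other arrays have 6 to 11.

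At 12 h post-injury WT cells had 9 of the 39 genes higher and 8 lower than uninjured WT cells (limma, adjusted p under 0.05). These are 23.1% and 20.5% of the genes, beside 23.3% and 14.2% of all 45101 probe sets in the same directions, so the share that rose was close to that of all probe sets. The 2 shares are not of like probe sets, as each gene was read by its brightest and all probe sets include dimmer ones. This holds for every share of all probe sets given here. The direction followed the level: of the 12 genes averaging 4 or more, 0 rose and 6 fell (median change -1.09), while of the 27 dimmer genes 9 rose and 2 fell. Over all probe sets averaging 4 or more the median change was -1.43, and over all probe sets 0.15. The 12 h time and the hybridization-control level moved together in WT cells. With that level as a covariate, 0 genes were higher and 1, Bub3, lower. After the 75th percentile shift the counts were 11 and 7.

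At 48 h in WT cells 4 genes were higher and 2 lower than in uninjured cells, 10.3% and 5.13% of 39, beside 5.35% and 7.12% of all probe sets. The counts were 13 and 3 after the 75th percentile shift, 0 and 1 after quantile normalization, and 0 and 0 with all 18 arrays. Between 48 h and 12 h in WT cells 3 genes were higher and 4 lower, beside 5.74% and 6.62% of all probe sets, and the split was 3 and 1 after either scaling.

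In Sdc4-/- cells no mitosis gene passed the test at 12 h (0 of 39 by limma in each direction, 4 higher and 6 lower at an unadjusted p under 0.05, 1 higher by the analysis of variance without moderation), beside 1.26% of all probe sets higher and 5.15% lower. The 75th percentile shift gave 11 higher and 2 lower, and quantile normalization 2 higher and 0 lower. At 48 h 1 gene, Birc5, was higher and 0 lower than in uninjured Sdc4-/- cells (5 and 3 at an unadjusted p under 0.05), beside 2.18% and 2.31%. Between 48 h and 12 h in Sdc4-/- cells 4 genes were higher and 0 lower (9 and 0 at an unadjusted p under 0.05), 10.3% of the genes beside 5.28% and 0.703% of all probe sets. After the 75th percentile shift this split was 5 and 6, and after quantile normalization 3 and 1.

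Uninjured Sdc4-/- cells had 0 of 39 genes higher and 0 lower than uninjured WT cells by limma and by the analysis of variance without moderation (3 and 2 at an unadjusted p under 0.05), beside 1.25% and 2.55% of all probe sets. At 12 h 2 genes were higher and 7 lower in Sdc4-/- than in WT cells, beside 5.47% and 11.9%. Only the 2 higher genes, Mki67 and Bub3, have a mean of at least 4, and all 7 lower genes have a mean under 4 (changes of -1.03 to -0.49). The split was 2 and 3 after the 75th percentile shift and 2 and 4 after quantile normalization. At 48 h 2 genes were higher and 1 lower in Sdc4-/- than in WT cells, beside 3.61% and 1.46%. The 75th percentile shift gave 3 and 10, and quantile normalization 1 and 0. The 12 h change itself differed between genotypes, as the Sdc4-/- change minus the WT change, upward for 1 gene and downward for 3, beside 4.37% and 6.72% of all probe sets (1 and 1 after the 75th percentile shift, 1 and 2 after quantile normalization). The 48 h change differed upward for 2 genes and downward for 0 (6 and 7 at an unadjusted p under 0.05), beside 2.92% and 1.17% (1 and 3 after the 75th percentile shift, 1 and 0 after quantile normalization). Under the 75th percentile shift the median over all probe sets differed by more than 0.1 in most comparisons, for example to 0.43, against 0.11 as deposited, in WT cells at 48 h. In all, 53 calls were made for members over the 11 comparisons, and 6 of them stayed past the threshold in every refit that could be made for the gene. Those 6 were Bub3 in 3 comparisons that involve the WT 12 h arrays, Cdca8 between 48 h and 12 h in WT cells, and Birc5 at 48 h in Sdc4-/- cells against uninjured and against 12 h. The Bub3 and Cdca8 calls among them rest on the WT 12 h arrays, where only 2832 to 3982 probe sets exceeded 5. No refit left these arrays out as a group. Holding in every refit thus cannot tell a change of these 2 genes from the array-wide loss of bright signal. The size did not hold with the call: in the mean of their probe sets the Bub3 and Cdca8 changes were smaller, as given beside each, and Birc5, with 1 probe set and a mean under 4, could be tried neither with other probe sets nor among the brighter ones. A refit that ended a call is counted beside that call below.

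**Figure D3:**
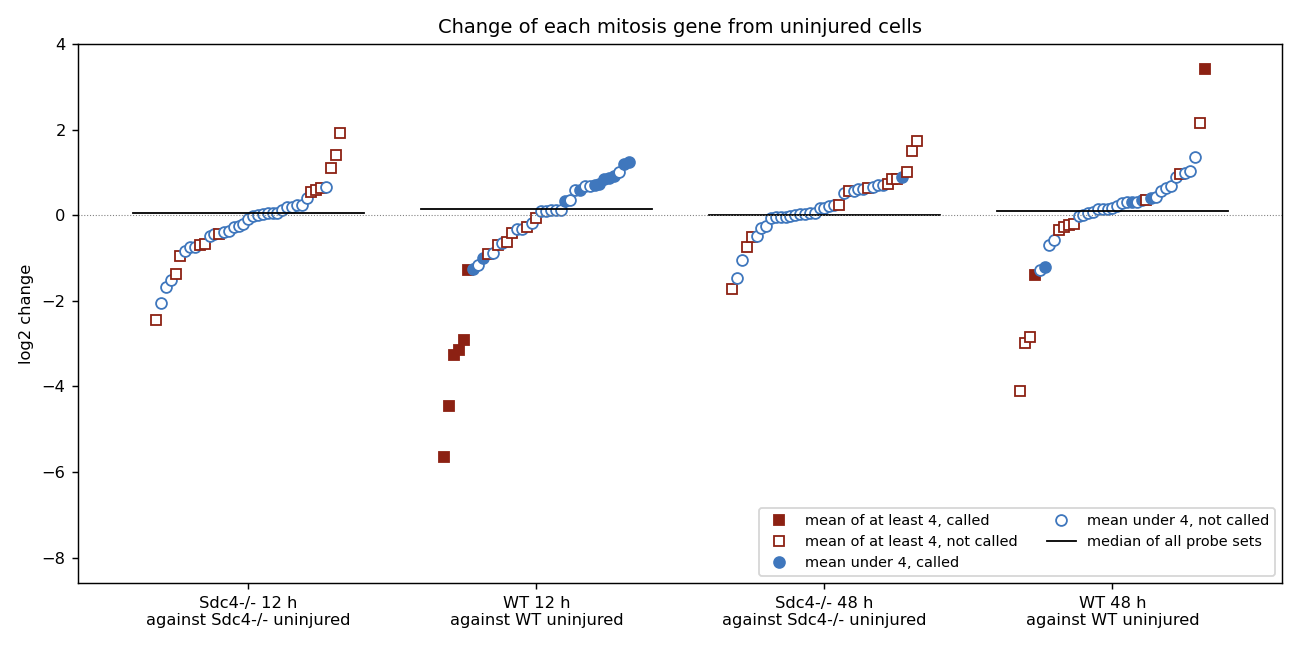
Log2 change of each of the 39 mitosis genes from uninjured cells of the same genotype, ordered by size within each comparison, with squares for a mean of at least 4 and filled symbols for called genes. In WT cells at 12 h the called squares are all below 0 and most called circles are above it. The line is the median of all probe sets.

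Mki67 encodes Ki-67, a protein that coats mitotic chromosomes and serves as a marker of cycling cells. Mki67 in Sdc4-/- cells had log2 values of 7.36, 6.09 and 6.34 uninjured, 9.5, 7.22 and 8.86 at 12 h and 7.77, 7.08 and 6.65 at 48 h. In WT cells Mki67 had 5.21 and 5.85 uninjured, 5.22, 5.40 and 3.25 at 12 h and 8.82, 9.40 and 8.65 at 48 h. All 3 WT 48 h arrays were above both uninjured and all 12 h arrays of WT cells, and in Sdc4-/- cells the 2 highest values were at 12 h, where replicate 2 overlapped the other times. Mki67 rose at 48 h in WT cells, both against uninjured cells (log2 change 3.43, standard error 0.73, adjusted p = 0.00941) and against 12 h (log2 change 4.33, standard error 0.65, adjusted p = 0.000927). At 12 h it was higher in Sdc4-/- than in WT cells (log2 change 3.90, standard error 0.65, adjusted p = 0.00151), without overlap of the arrays. Its changes in Sdc4-/- cells were 1.93 (adjusted p = 0.112) at 12 h and 0.57 (adjusted p = 0.898) at 48 h, and its 48 h change did not pass the test of a genotype difference, -2.86 (adjusted p = 0.136). The call over uninjured cells was lost in 4 of 26 refits (adjusted p up to 0.695, with 0.0865 without WT uninjured replicate 1). That over 12 h was lost in 2 of 26 refits (adjusted p up to 0.0872), and the genotype difference at 12 h was lost in 2 of 26 refits (adjusted p up to 0.0795). The monocyte and macrophage markers rose with Mki67 between 12 h and 48 h in WT cells (12 of 13, beside 5.74% of all probe sets). At 12 h 9 of 13 were higher in Sdc4-/- than in WT cells, beside 5.47%. Within Sdc4-/- cells these markers averaged lower at 12 h (7.67 to 8.62) than uninjured (8.85 to 9.70) or at 48 h (9.78 to 9.97). There the group mean of Mki67 was highest at 12 h (8.53, against 6.60 uninjured and 7.17 at 48 h). Bub3 and Cdca8 were also higher at 48 h than at 12 h in WT cells. The part of these markers in the values of the 3 genes was not tested.

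Top2a, the topoisomerase that untangles sister chromatids, and the condensin subunits shape chromosomes before segregation. Top2a in Sdc4-/- cells had log2 values of 3.26, 2.65 and 6.09 uninjured, 3.03, 3.69 and 3.16 at 12 h and 6.42, 5.99 and 4.77 at 48 h. In WT cells Top2a had 4.28 and 4.77 uninjured, 4.28, 3.35 and 4.06 at 12 h and 6.70, 3.46 and 6.31 at 48 h. Top2a was above 4.7 on all Sdc4-/- 48 h arrays, whereas WT 48 h replicate 2 was at 3.46 and the other two WT 48 h arrays above 6. It did not pass the test at 48 h, with 1.73 (adjusted p = 0.448) in Sdc4-/- cells and 0.97 (adjusted p = 0.572) in WT cells. Top2a, Cdk1 and Cdca8 are named outside the rule for named genes and were chosen after their values were seen.

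Smc2 and Smc4 form the core of condensin. Smc2 in Sdc4-/- cells had log2 values of 4.32, 4.59 and 4.08 uninjured, 4.01, 3.99 and 3.68 at 12 h and 4.89, 6.03 and 5.08 at 48 h. In WT cells Smc2 had 5.57 and 4.64 uninjured, 3.47, 3.95 and 4.08 at 12 h and 4.19, 3.02 and 3.91 at 48 h. Smc2 was lower in WT cells than uninjured at 12 h (log2 change -1.27, standard error 0.40, adjusted p = 0.0266), and at 48 h (log2 change -1.40, standard error 0.40, adjusted p = 0.0403). At 48 h Smc2 was higher in Sdc4-/- than in WT cells (log2 change 1.63, standard error 0.36, adjusted p = 0.0232), without overlap of the arrays, and its 48 h change differed between genotypes (log2 change 2.40, standard error 0.54, adjusted p = 0.0286). The WT call at 12 h was lost in 8 of 26 refits (adjusted p up to 0.775, with 0.242 without WT uninjured replicate 1 and 0.0709 without WT 12 h replicate 1) and turned round, to 0.41 (adjusted p = 0.0258), in the mean of its 5 probe sets. The WT call at 48 h was lost in 13 of 26 refits (adjusted p up to 0.625, with 0.051 to 0.326 without any 1 of 7 arrays). The genotype difference at 48 h was lost in 8 of 26 refits (adjusted p up to 0.41, with 0.0816 without WT 48 h replicate 2, 0.0807 without Sdc4-/- 48 h replicate 2 and 0.0509 without Sdc4-/- 48 h replicate 3), and that in the 48 h change was lost in 10 of 26 refits (adjusted p up to 0.454, with 0.134 without WT uninjured replicate 1, 0.0516 without WT 48 h replicate 2, 0.0509 without Sdc4-/- uninjured replicate 1 and 0.0537 without Sdc4-/- uninjured replicate 3). Within Sdc4-/- cells Smc2 was higher at 48 h than at 12 h (log2 change 1.44, standard error 0.36, adjusted p = 0.0347), a call lost in 12 of 26 refits (adjusted p up to 0.677, with 0.0619 to 0.136 without any 1 of 5 arrays).

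Smc4 in Sdc4-/- cells had log2 values of 5.78, 6.13 and 5.60 uninjured, 3.87, 4.36 and 7.26 at 12 h and 6.68, 6.49 and 6.91 at 48 h. In WT cells Smc4 had 6.83 and 6.61 uninjured, 3.50, 3.77 and 3.13 at 12 h and 5.73, 2.42 and 3.44 at 48 h. Smc4 fell at 12 h in WT cells (log2 change -3.26, standard error 0.94, adjusted p = 0.0177), with no overlap of the arrays, a call lost in 4 of 26 refits (adjusted p up to 0.368, with 0.091 without WT uninjured replicate 1 and 0.0706 without WT uninjured replicate 2). In the mean of its 3 probe sets this change was -0.60 (adjusted p = 0.213), and the 2 others rose by 0.72 and 0.73 without a call. At 48 h Smc4 spread over more than 3 log2 units in WT cells and lay between 6.49 and 6.91 in Sdc4-/- cells. The Ncapg and Ncaph subunits of condensin I did not pass the test in any comparison.

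**Figure D4:**
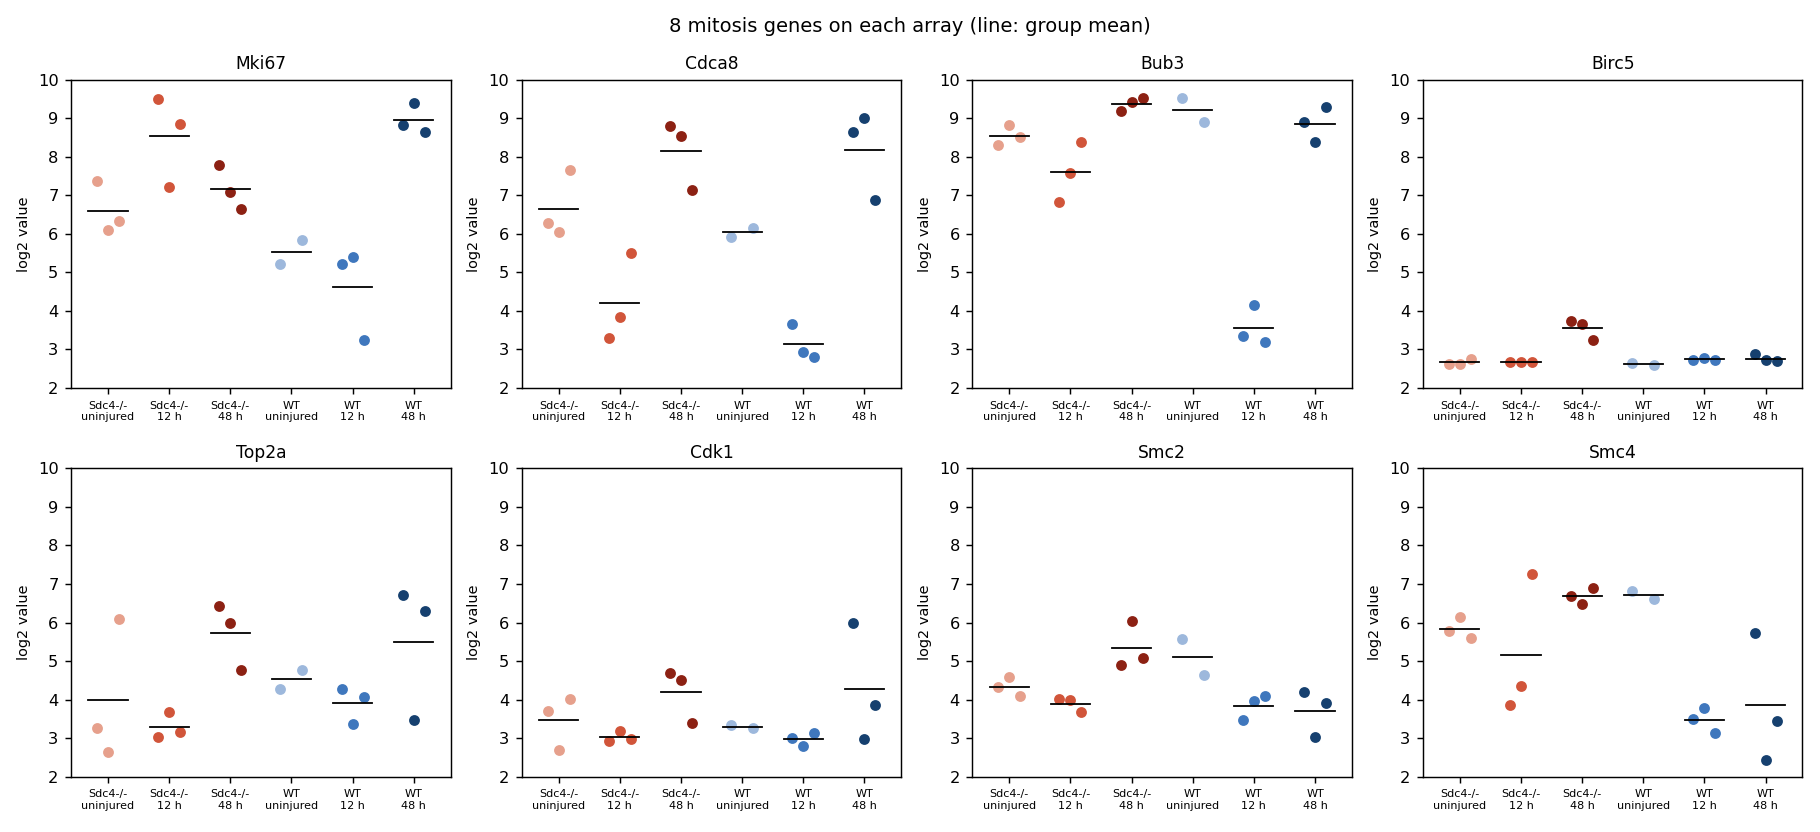
Log2 values of 8 mitosis genes on each array (points) with group means (lines), in the order Sdc4-/- uninjured, 12 h and 48 h, then WT uninjured, 12 h and 48 h. Mki67 has its highest group means in WT 48 h and Sdc4-/- 12 h arrays, although Sdc4-/- arrays overlap between times, Bub3 drops to between 3.20 and 4.14 in WT 12 h arrays, and Birc5 is above 3.2 only in Sdc4-/- 48 h arrays.

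The chromosomal passenger complex joins the kinase Aurora B (Aurkb) to survivin (Birc5) and borealin (Cdca8) and corrects faulty attachments of chromosomes. Birc5 in Sdc4-/- cells had log2 values of 2.61, 2.61 and 2.76 uninjured, 2.66, 2.66 and 2.68 at 12 h and 3.74, 3.66 and 3.25 at 48 h. In WT cells Birc5 had 2.64 and 2.60 uninjured, 2.72, 2.76 and 2.73 at 12 h and 2.88, 2.71 and 2.70 at 48 h. All 3 Sdc4-/- 48 h arrays lay above the other 14, although at a low level. Birc5 rose at 48 h in Sdc4-/- cells, both against uninjured cells (log2 change 0.89, standard error 0.11, adjusted p = 0.000416) and against 12 h (log2 change 0.88, standard error 0.11, adjusted p = 0.000634), and both calls held in all 25 refits made. It was higher than in WT 48 h cells (log2 change 0.79, standard error 0.11, adjusted p = 0.00149), a call lost in 1 of 25 refits (adjusted p up to 0.0632). The genotype difference in the 48 h change was 0.74 (standard error 0.16, adjusted p = 0.0224), a call lost in 6 of 25 refits (adjusted p up to 0.105, with 0.0783 without WT uninjured replicate 1, 0.0505 without WT 48 h replicate 2 and 0.0502 without Sdc4-/- 48 h replicate 2). In WT cells its 48 h change was 0.15 (adjusted p = 0.448). Birc5 has 1 probe set, and its mean under 4 kept it out of the fit of brighter probe sets.

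Cdca8 in Sdc4-/- cells had log2 values of 6.27, 6.04 and 7.65 uninjured, 3.30, 3.84 and 5.50 at 12 h and 8.79, 8.54 and 7.15 at 48 h. In WT cells Cdca8 had 5.92 and 6.15 uninjured, 3.67, 2.92 and 2.8 at 12 h and 8.66, 9.0 and 6.89 at 48 h. Cdca8 was bright at 48 h in both genotypes and dim at 12 h, with no overlap between 48 h and 12 h arrays in either. It was higher at 48 h than at 12 h (log2 change 3.94, standard error 0.69, adjusted p = 0.00533) in Sdc4-/- cells and (log2 change 5.05, standard error 0.69, adjusted p = 0.000475) in WT cells. The WT call held in every refit, at 2.21 in the mean of its 3 probe sets, and the Sdc4-/- call was lost in 1 of 26 refits (adjusted p up to 0.0685). Against uninjured cells it fell at 12 h in WT cells (log2 change -2.91, standard error 0.78, adjusted p = 0.0119), a call lost in 5 of 26 refits (adjusted p up to 0.433, with 0.055 without WT uninjured replicate 1 and 0.0685 without WT uninjured replicate 2). In Sdc4-/- cells the 12 h change was -2.44 (adjusted p = 0.0588), and the 48 h changes were 1.5 (adjusted p = 0.34) in Sdc4-/- and 2.14 (adjusted p = 0.094) in WT cells. The difference between genotypes at 48 h was -0.02 (adjusted p = 0.988). Of its 2 other probe sets, 1428481_s_at was also higher at 48 h than at 12 h on average, by 2.28 in Sdc4-/- and 1.79 in WT cells, without passing the test (adjusted p = 0.146 and 0.194), and 1428480_at changed by -0.46 and -0.21. At 12 h in WT cells these 2 rose against uninjured cells without a call, by 0.48 and 0.71. The mean of the 3 probe sets changed by -0.57 there (adjusted p = 0.433).

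Aurkb in Sdc4-/- cells had log2 values of 2.76, 2.72 and 2.76 uninjured, 2.86, 2.83 and 3.26 at 12 h and 2.78, 2.62 and 2.73 at 48 h. In WT cells Aurkb had 2.76 and 2.62 uninjured, 3.24, 3.90 and 3.68 at 12 h and 2.99, 3.07 and 3.31 at 48 h. Aurkb was higher in WT cells at 12 h than uninjured (log2 change 0.91, standard error 0.18, adjusted p = 0.00196) and lower in Sdc4-/- than in WT cells at 12 h (log2 change -0.62, standard error 0.16, adjusted p = 0.0176), all at levels under 4. The call in WT cells was lost in 2 of 25 refits (adjusted p up to 0.973), and the genotype difference was lost in 8 of 25 refits (adjusted p up to 0.87, with 0.0646 without WT 12 h replicate 2, 0.0659 without Sdc4-/- 12 h replicate 1 and 0.0737 without Sdc4-/- 12 h replicate 2).

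The spindle checkpoint holds anaphase until every kinetochore is attached. Bub3 carries Bub1 and BubR1 (Bub1b) to kinetochores. Bub3 in Sdc4-/- cells had log2 values of 8.30, 8.84 and 8.50 uninjured, 6.83, 7.58 and 8.38 at 12 h and 9.19, 9.42 and 9.54 at 48 h. In WT cells Bub3 had 9.52 and 8.90 uninjured, 3.33, 4.14 and 3.20 at 12 h and 8.90, 8.39 and 9.30 at 48 h. Bub3 was between 3.20 and 4.14 on the WT 12 h arrays and above 6.8 on the other 14. It fell at 12 h in WT cells (log2 change -5.65, standard error 0.42, adjusted p = 4.67e-06) and was higher at 48 h than at 12 h (log2 change 5.31, standard error 0.38, adjusted p = 2.39e-06). In Sdc4-/- cells its 12 h change was -0.95 (adjusted p = 0.181). At 12 h it was higher in Sdc4-/- than in WT cells (log2 change 4.04, standard error 0.38, adjusted p = 3.58e-05) and the 12 h change differed (log2 change 4.71, standard error 0.56, adjusted p = 0.000527). In the mean of its 5 probe sets these changes were -0.50 (adjusted p = 0.019) at 12 h in WT cells, 0.71 (adjusted p = 0.00316) between 48 h and 12 h in WT cells and 0.46 (adjusted p = 0.0303) between genotypes at 12 h. These calls stayed past the threshold in every refit, and that of the 12 h change was lost in 1 of 26 refits (adjusted p up to 0.202), in the mean of its 5 probe sets. A rise between 12 h and 48 h in Sdc4-/- cells, 1.78 (standard error 0.38, adjusted p = 0.0146), was a call lost in 6 of 26 refits (adjusted p up to 0.366, with 0.0556 without Sdc4-/- 12 h replicate 1 and 0.0549 without Sdc4-/- 48 h replicate 3). The 4 other probe sets of Bub3 lay between 2.27 and 4.04 on all 17 arrays, and 3 of them were called higher at 12 h in WT cells, by 0.79 to 0.82.

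Bub1 is a checkpoint kinase at kinetochores. Bub1 in Sdc4-/- cells had log2 values of 2.74, 2.95 and 2.78 uninjured, 2.82, 2.85 and 2.95 at 12 h and 2.81, 2.77 and 2.72 at 48 h. In WT cells Bub1 had 2.68 and 2.65 uninjured, 3.31, 3.51 and 3.76 at 12 h and 3.00, 3.14 and 3.05 at 48 h. The WT 12 h arrays lay above all others, all at levels under 4, and so did their median of all probe sets. Bub1 rose at 12 h in WT cells (log2 change 0.86, standard error 0.11, adjusted p = 0.000136), a call lost in 1 of 25 refits (adjusted p up to 0.438), and its other probe set changed by 0.10 and was not called. At 48 h in WT cells the rise was 0.40 (standard error 0.11, adjusted p = 0.037), a call lost in 10 of 25 refits (adjusted p up to 0.832, with 0.0511 to 0.151 without any 1 of 5 arrays). It was lower at 48 h than at 12 h (log2 change -0.46, adjusted p = 0.00932), a call lost in 5 of 25 refits (adjusted p up to 0.275). In Sdc4-/- cells it was lower than in WT cells at 12 h (log2 change -0.66, standard error 0.10, adjusted p = 0.000872), a call lost in 2 of 25 refits (adjusted p up to 0.229), and the 12 h change differed (log2 change -0.81, standard error 0.15, adjusted p = 0.00562), a call lost in 3 of 25 refits (adjusted p up to 0.497). Bub1b rose at 12 h in WT cells (log2 change 1.20, adjusted p = 0.0288), a call lost in 6 of 25 refits (adjusted p up to 0.869, with 0.137 without WT uninjured replicate 1, 0.0869 without WT uninjured replicate 2 and 0.0634 without WT 12 h replicate 1). Ttk (Mps1), the kinase that starts checkpoint signalling, rose there (log2 change 0.34, adjusted p = 0.0229), a call lost in 6 of 25 refits (adjusted p up to 0.871, with 0.0841 without WT uninjured replicate 1, 0.1 without WT uninjured replicate 2 and 0.0552 without WT 12 h replicate 2). Mad2l1, which inhibits Cdc20, had values of 4.14 to 7.28 and did not pass the test in any comparison.

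In the cyclin-CDK and APC/C group, Ube2c is the ubiquitin-conjugating enzyme of the APC/C. Ube2c in Sdc4-/- cells had log2 values of 2.82, 2.76 and 3.08 uninjured, 3.00, 3.00 and 3.01 at 12 h and 3.46, 2.95 and 2.78 at 48 h. In WT cells Ube2c had 2.41 and 3.13 uninjured, 4.26, 4.42 and 3.39 at 12 h and 3.01, 3.03 and 3.24 at 48 h. Ube2c rose at 12 h in WT cells (log2 change 1.25, standard error 0.29, adjusted p = 0.00579), a call lost in 4 of 25 refits (adjusted p up to 0.653, with 0.0833 without WT uninjured replicate 1). It was lower at 48 h than at 12 h in WT cells (log2 change -0.93, standard error 0.26, adjusted p = 0.035), a call lost in 11 of 25 refits (adjusted p up to 0.291, with 0.0623 to 0.126 without any 1 of 5 arrays), and lower in Sdc4-/- than in WT cells at 12 h (log2 change -1.03, standard error 0.26, adjusted p = 0.0176), a call lost in 6 of 25 refits (adjusted p up to 0.489, with 0.0685 without WT 12 h replicate 2 and 0.0527 without Sdc4-/- 12 h replicate 2).

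Ccnb2 encodes cyclin B2. Ccnb2 in Sdc4-/- cells had log2 values of 3.18, 2.37 and 3.99 uninjured, 2.44, 2.43 and 2.45 at 12 h and 4.34, 2.85 and 2.97 at 48 h. In WT cells Ccnb2 had 3.47 and 4.00 uninjured, 2.47, 2.51 and 2.49 at 12 h and 2.45, 2.46 and 2.45 at 48 h. Ccnb2 was lower in WT cells at 12 h than uninjured (log2 change -1.25, standard error 0.44, adjusted p = 0.0424), a call lost in 17 of 25 refits (adjusted p up to 0.448, with 0.0525 to 0.224 without any 1 of 12 arrays). Cdk1 is the kinase that cyclins A and B activate. Cdk1 in Sdc4-/- cells had log2 values of 3.70, 2.70 and 4.02 uninjured, 2.93, 3.19 and 2.99 at 12 h and 4.68, 4.50 and 3.38 at 48 h. In WT cells Cdk1 had 3.33 and 3.26 uninjured, 3.00, 2.8 and 3.13 at 12 h and 5.99, 2.97 and 3.87 at 48 h. It exceeded 5 on a single array, WT 48 h replicate 1. Its 48 h changes were 0.71 (adjusted p = 0.764) in Sdc4-/- and 0.98 (adjusted p = 0.374) in WT cells. On the same array Ccna2 was at 6.01, against 2.43 and 3.64 on the other WT 48 h arrays, and Top2a was at 6.70, so that the 3 WT 48 h replicates did not carry these genes alike. Cdc20 had values of 3.94 to 5.04 and did not pass the test in any comparison, nor did Ccna2.

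Nek2, a kinase of centrosome separation, and Plk1, a kinase that acts throughout mitosis, stand for the mitotic kinases. Nek2 in Sdc4-/- cells had log2 values of 2.65, 2.79 and 2.81 uninjured, 3.04, 2.93 and 2.85 at 12 h and 3.16, 3.07 and 3.75 at 48 h. In WT cells Nek2 had 2.78 and 2.91 uninjured, 3.28, 4.38 and 3.44 at 12 h and 3.16, 3.12 and 3.08 at 48 h. Nek2 rose at 12 h in WT cells (log2 change 0.85, standard error 0.27, adjusted p = 0.0265), a call lost in 6 of 25 refits (adjusted p up to 0.535, with 0.129 without WT uninjured replicate 1 and 0.0818 without WT uninjured replicate 2), and was lower in Sdc4-/- than in WT cells at 12 h (log2 change -0.76, standard error 0.24, adjusted p = 0.0484), a call lost in 21 of 25 refits (adjusted p up to 0.396, with 0.0554 to 0.118 without any 1 of 14 arrays). Plk1 in Sdc4-/- cells had log2 values of 2.77, 2.45 and 2.90 uninjured, 2.44, 2.41 and 2.42 at 12 h and 2.41, 2.40 and 2.41 at 48 h. In WT cells Plk1 had 2.46 and 2.35 uninjured, 2.47, 2.53 and 2.50 at 12 h and 2.46, 2.46 and 2.44 at 48 h. Plk1 stayed under 3 on every array and was not called. Aurka, the Aurora kinase of spindle poles, was 2.32 to 2.56 on all arrays but WT 12 h replicate 2, where it was 5.13. Melk, the other kinase of this group, had values of 2.47 to 3.66, and neither Aurka nor Melk was called.

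Cenpe, a kinesin that moves chromosomes to the spindle equator, and Cenpf, a kinetochore protein, were dim. Cenpe in Sdc4-/- cells had log2 values of 2.54, 2.76 and 2.70 uninjured, 2.74, 2.63 and 2.78 at 12 h and 2.66, 2.71 and 2.70 at 48 h. In WT cells Cenpe had 2.45 and 2.49 uninjured, 3.18, 3.16 and 3.26 at 12 h and 2.73, 3.01 and 2.76 at 48 h. WT 12 h arrays lay above the other 14, all within 1 log2 unit, and so did their median of all probe sets. Cenpe rose at 12 h in WT cells (log2 change 0.73, standard error 0.09, adjusted p = 0.000117) and was lower in Sdc4-/- than in WT cells at 12 h (log2 change -0.49, standard error 0.08, adjusted p = 0.0017), where the WT call was lost in 1 of 25 refits (adjusted p up to 0.38) and the genotype difference was lost in 1 of 25 refits (adjusted p up to 0.288). The 12 h change differed (log2 change -0.68, standard error 0.12, adjusted p = 0.00524), a call lost in 4 of 25 refits (adjusted p up to 0.441). In WT cells the 48 h change was 0.36 (adjusted p = 0.0247), a call lost in 8 of 25 refits (adjusted p up to 0.713, with 0.139 without WT uninjured replicate 1, 0.0819 without WT uninjured replicate 2 and 0.0688 without WT 48 h replicate 2), and from 12 h to 48 h -0.37 (adjusted p = 0.0115), a call lost in 7 of 25 refits (adjusted p up to 0.215, with 0.0561 without WT 48 h replicate 1). Cenpf in Sdc4-/- cells had log2 values of 2.34, 2.60 and 3.70 uninjured, 2.40, 2.39 and 2.41 at 12 h and 2.39, 2.38 and 2.41 at 48 h. In WT cells Cenpf had 2.44 and 3.78 uninjured, 2.43, 2.46 and 2.48 at 12 h and 2.42, 2.42 and 2.41 at 48 h. Cenpf exceeded 3 on 1 Sdc4-/- uninjured and 1 WT uninjured array and was not called. Cenpa, the histone variant that marks centromeres, had values of 3.20 to 5.83 and was not called.

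Among the kinesin motors, Kif20a acts at the central spindle and Kif11 (Eg5) pushes spindle poles apart. Kif20a in Sdc4-/- cells had log2 values of 2.72, 2.53 and 2.59 uninjured, 2.8, 2.78 and 2.82 at 12 h and 2.64, 2.66 and 2.72 at 48 h. In WT cells Kif20a had 2.68 and 2.65 uninjured, 3.27, 3.39 and 3.48 at 12 h and 2.95, 3.04 and 2.95 at 48 h. Its WT 12 h values lay above the other 14, as did the median of all probe sets on these arrays. Kif20a rose at 12 h in WT cells (log2 change 0.71, standard error 0.08, adjusted p = 4.17e-05) and was lower in Sdc4-/- than in WT cells at 12 h (log2 change -0.58, standard error 0.07, adjusted p = 0.000205), where the WT call was lost in 1 of 25 refits (adjusted p up to 0.226) and the genotype difference was lost in 1 of 25 refits (adjusted p up to 0.081). Its further calls were a 48 h rise in WT cells, 0.32 (adjusted p = 0.0185), a call lost in 6 of 25 refits (adjusted p up to 0.592, with 0.0825 without WT uninjured replicate 1, 0.0898 without WT uninjured replicate 2 and 0.059 without WT 48 h replicate 2), and a fall between 12 h and 48 h, -0.40 (adjusted p = 0.00251), a call lost in 2 of 25 refits (adjusted p up to 0.0782). The difference between genotypes at 48 h was -0.31 (adjusted p = 0.0229), a call lost in 7 of 25 refits (adjusted p up to 0.456, with 0.0828 without WT 48 h replicate 2, 0.0692 without Sdc4-/- 48 h replicate 1, 0.0702 without Sdc4-/- 48 h replicate 2 and 0.0504 without Sdc4-/- 48 h replicate 3), and that in the 12 h change -0.52 (adjusted p = 0.00767), a call lost in 4 of 25 refits (adjusted p up to 0.453).

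Kif11 in Sdc4-/- cells had log2 values of 2.86, 2.59 and 2.89 uninjured, 2.99, 2.97 and 3.11 at 12 h and 3.09, 3.08 and 2.87 at 48 h. In WT cells Kif11 had 3.07 and 3.04 uninjured, 3.48, 3.86 and 3.60 at 12 h and 3.12, 3.92 and 4.01 at 48 h. Kif11 rose at 12 h in WT cells (log2 change 0.59, standard error 0.22, adjusted p = 0.0477), a call lost in 20 of 25 refits (adjusted p up to 0.886, with 0.051 to 0.157 without any 1 of 13 arrays), and was lower in Sdc4-/- than in WT cells at 12 h (log2 change -0.62, standard error 0.19, adjusted p = 0.0439), a call lost in 18 of 25 refits (adjusted p up to 0.901, with 0.0546 to 0.137 without any 1 of 12 arrays). Kif23, a subunit of centralspindlin, had values of 2.87 to 6.36, Kif2c, a microtubule depolymerase, exceeded 4 on 1 array (5.93, Sdc4-/- 48 h replicate 2), and Kif4, a chromosome-bound kinesin, stayed at 2.28 to 2.43, and none of the 3 was called.

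The factors Tpx2, which activates Aurora A on spindle microtubules, and Hmmr, a spindle pole protein, were both bright on the same arrays. Tpx2 in Sdc4-/- cells had log2 values of 5.14, 6.75 and 7.66 uninjured, 7.86, 9.70 and 3.88 at 12 h and 4.34, 3.64 and 6.42 at 48 h. In WT cells Tpx2 had 6.16 and 9.85 uninjured, 3.52, 3.57 and 3.54 at 12 h and 3.49, 3.51 and 4.71 at 48 h. Hmmr in Sdc4-/- cells had log2 values of 4.93, 5.58 and 6.80 uninjured, 7.79, 8.74 and 5.03 at 12 h and 5.11, 4.37 and 6.27 at 48 h. In WT cells Hmmr had 6.39 and 9.48 uninjured, 4.37, 5.01 and 5.0 at 12 h and 4.94, 4.98 and 4.93 at 48 h. WT uninjured replicate 2 and Sdc4-/- 12 h replicates 1 and 2 were the highest for both genes. In WT cells Tpx2 fell at 12 h (log2 change -4.46, standard error 1.5, adjusted p = 0.0347) as did Hmmr (log2 change -3.14, standard error 1.05, adjusted p = 0.0336). With the hybridization-control covariate the changes turned round, to 5.92 for Tpx2 (adjusted p = 0.304) and 3.39 for Hmmr (adjusted p = 0.509). The Tpx2 call was lost in 9 of 26 refits (adjusted p up to 0.304, with 0.294 without WT uninjured replicate 2, 0.0609 without WT 12 h replicate 1, 0.0653 without WT 12 h replicate 2 and 0.0638 without WT 12 h replicate 3), and the Hmmr call was lost in 9 of 26 refits (adjusted p up to 0.509, with 0.329 without WT uninjured replicate 2, 0.0723 without WT 12 h replicate 1, 0.0569 without WT 12 h replicate 2 and 0.0551 without WT 12 h replicate 3). Of the other probe sets of Tpx2, 1447519_x_at followed the same arrays and the remaining 2 lay under 3.7, and the 4 others of Hmmr lay under 4.3 on every array. Nusap1, Prc1 and Spag5, which bundle or bind spindle microtubules, were not called.

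**Figure D5:**
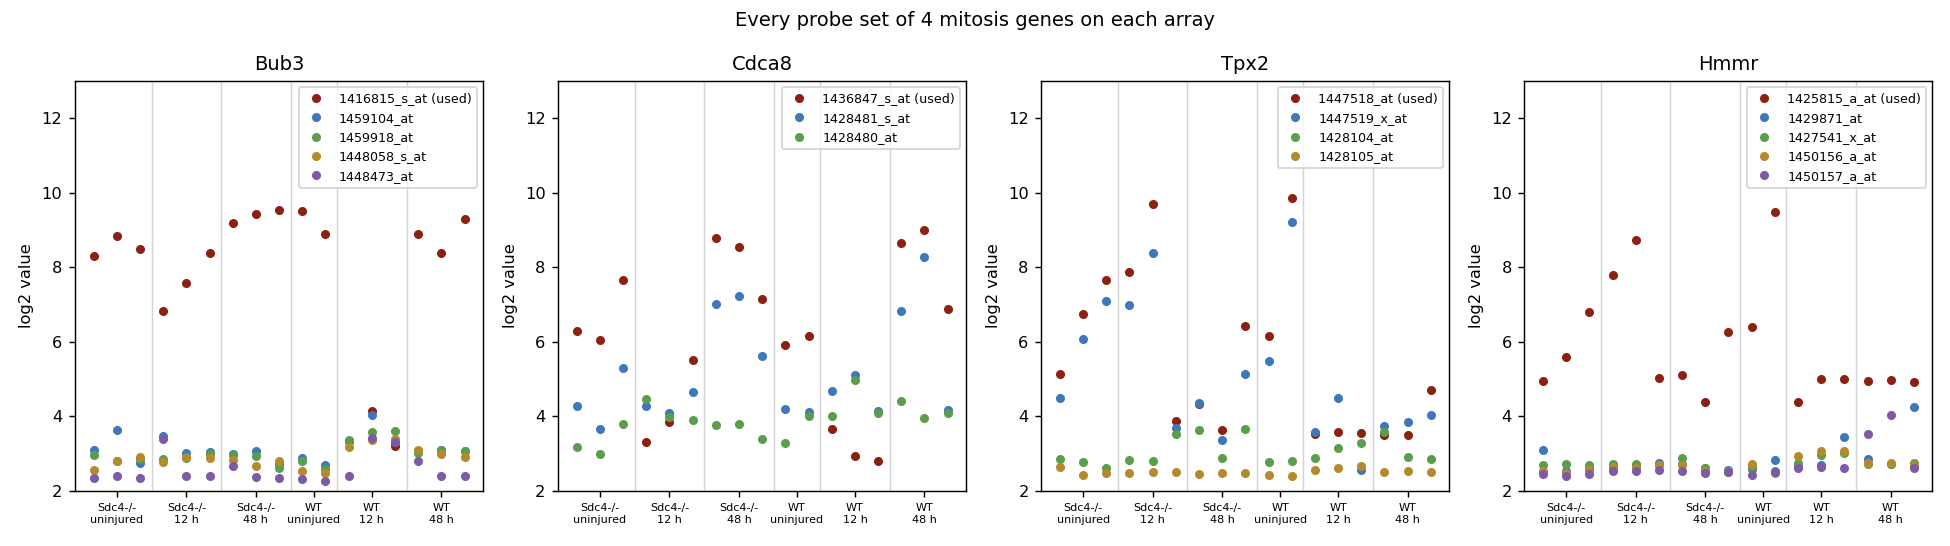
Log2 values of every probe set of Bub3, Cdca8, Tpx2 and Hmmr (colours) on the 17 arrays (x axis, by group). The probe set used has the highest mean in each panel, and the others of Bub3 and Hmmr stay under 4.3 on every array while the used ones reach above 9.

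Of the cytokinesis factors, Ect2 activates RhoA at the cell equator and Anln is a scaffold of the cleavage furrow. Ect2 in Sdc4-/- cells had log2 values of 3.76, 2.85 and 3.33 uninjured, 2.95, 2.94 and 2.92 at 12 h and 4.13, 2.97 and 3.39 at 48 h. In WT cells Ect2 had 3.92 and 4.26 uninjured, 3.00, 3.22 and 3.05 at 12 h and 2.75, 2.92 and 2.94 at 48 h. Ect2 was lower in WT cells at 12 h than uninjured (log2 change -1.0, standard error 0.29, adjusted p = 0.0185), a call lost in 3 of 25 refits (adjusted p up to 0.451, with 0.13 without WT uninjured replicate 2), and at 48 h (log2 change -1.22, standard error 0.29, adjusted p = 0.0171), a call lost in 4 of 25 refits (adjusted p up to 0.26, with 0.0547 without WT uninjured replicate 1 and 0.126 without WT uninjured replicate 2). Anln in Sdc4-/- cells had log2 values of 3.16, 3.00 and 3.02 uninjured, 3.04, 3.03 and 3.06 at 12 h and 3.03, 3.01 and 3.02 at 48 h. In WT cells Anln had 3.13 and 2.98 uninjured, 3.09, 3.17 and 3.29 at 12 h and 3.05, 3.08 and 3.07 at 48 h. Anln stayed within 2.98 to 3.29 and was not called, nor was Racgap1, the GTPase-activating subunit of centralspindlin.

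Probe sets of the same gene often disagreed. Of the 39 genes, 28 have 2 to 5 probe sets, and 47 of the 54 probe sets that were not used stayed at or under 5 on every array. At 12 h in WT cells the used probe set was called lower, and at least 1 other probe set of the gene higher, for Bub3, Tpx2, Hmmr and Smc2. For Smc2 this held for all 4 others, with changes of 0.27 to 1.47. For Bub1, Bub1b, Ttk, Aurkb, Cdca8, Cenpe, Kif11 and Smc4 no other probe set was called there, and for Nek2 1 of 3 others was also called higher. For Cdca8 and Smc4, called lower, the 2 others of each changed upward, by 0.48 and 0.71 and by 0.72 and 0.73. The others of Kif11, called higher, changed by -0.09 and 0.22.

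Other genes of the cycle, from lists that include no member, were counted in the same way. Of 89 other mitosis genes, 12 were higher and 15 lower in WT cells at 12 h, and 5 higher and 3 lower at 48 h. Of all probe sets 23.3% were higher and 14.2% lower at 12 h, and 5.35% and 7.12% at 48 h. In Sdc4-/- cells 1 was higher and 7 lower at 12 h, beside 1.26% and 5.15% of all probe sets, and 3 higher and 1 lower at 48 h, beside 2.18% and 2.31%. Plk4, the kinase of centriole duplication, was higher at 48 h in Sdc4-/- cells (log2 change 3.43, adjusted p = 0.00877), and its 48 h change differed between genotypes (log2 change 5.28, adjusted p = 0.0103). Incenp, the scaffold of the chromosomal passenger complex, was lower at 12 h in Sdc4-/- cells (log2 change -3.65, adjusted p = 0.00132), and higher at 48 h than at 12 h in WT cells (log2 change 4.17, adjusted p = 0.00023), as was Cdca8. Incenp was also higher at 48 h than at 12 h in Sdc4-/- cells (log2 change 2.86, adjusted p = 0.00635). Of 45 DNA replication genes, 6 were higher and 9 lower in WT cells at 12 h, beside 23.3% and 14.2% of all probe sets, and 4 higher and 0 lower at 48 h, beside 5.35% and 7.12%. In Sdc4-/- cells 0 were higher and 5 lower at 12 h, and 3 higher and 0 lower at 48 h. Between 48 h and 12 h in Sdc4-/- cells 12 of 45 DNA replication genes were higher and 0 lower, beside 5.28% and 0.703% of all probe sets, with a median change of 1.30, where the mitosis genes had a median of 0.06 and all probe sets -0.04. Among them were Rpa1 (log2 change 3.46, adjusted p = 0.000373), a subunit of the protein that coats single-stranded DNA, Lig1 (log2 change 2.75, adjusted p = 0.00288), which joins Okazaki fragments, Gmnn (log2 change 2.10, adjusted p = 0.00353), an inhibitor of origin licensing, and Rrm1 (log2 change 2.79, adjusted p = 0.00361), a subunit of ribonucleotide reductase. Between 48 h and 12 h in WT cells 7 of 45 DNA replication genes were higher and 1 lower, beside 5.74% and 6.62% of all probe sets. Their median change there was 0.49, where the mitosis genes had -0.04 and all probe sets -0.08. The largest rise in WT cells, 7.35, was that of Rpa1. Whether the rise of this list differed between genotypes was not tested. In WT cells at 48 h Mcm5, a subunit of the replicative helicase, was higher than uninjured (log2 change 3.76, adjusted p = 0.00104). The comparisons of 12 h and 48 h with uninjured cells share the uninjured arrays. No refit was made for these lists or their single genes, and other probe sets of these genes were not compared. How far these calls hold is thus not known.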

How the data were processed

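Satellite cell RNA, from the equivalent of 5000 cells and after 2 rounds of amplification, was measured on Affymetrix MOE430v2 arrays. The authors normalized the arrays with GCRMA (GCOS, version not given in the sources used here, and Spotfire DecisionSite 2) and deposited log2 values of 45101 probe sets on 18 arrays, without detection calls, so that it is not known how far values under about 3 reflect RNA. Symbols came from GEO's platform annotation: 34958 probe sets had 1 symbol, 932 several and 9211 none, and only the first kind was named.

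From the deposited log2 values, limma 3.58.1 (R 4.3.3), by lmFit and then eBayes in 1 fit of 6 groups and 17 arrays with 11 residual degrees of freedom, gave each comparison, with Benjamini-Hochberg adjustment over all 45101 probe sets and a call at an adjusted p under 0.05. The number of arrays limits the precision. Values of every array are given for the 2 members of each role with the smallest adjusted p against uninjured cells and for members called between genotypes. Other members are named by a call, by their range or as not called, to account for all of them. The members and all gene lists were chosen with earlier results of these data known. Refits used all 18 arrays, only the groups compared, quantile normalization, a 75th percentile shift, only probe sets averaging 4 or more, a replicate block, a covariate (the average of the 18 probe sets for hybridization controls), no moderation, probe sets averaged within each gene, and each array left out. For single genes the covariate, the fit without moderation and the averaged probe sets were added after the data were seen. Counts were also taken at the study's threshold (2-fold, unadjusted p of 0.01 or less). No 2 arrays were alike (highest correlation 0.968). The script was tested on simulated data. Tables and figures were made with Python 3.11.15, pandas 2.3.3 and matplotlib 3.10.9.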

Additional observations from a re-analysis of the deposited data

Results flagged for a closer look

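The change after injury differed between genotypes for 6 calls, in a test of the difference itself (limma, the Sdc4-/- change minus the WT change). For the 12 h change the difference was 4.71 for Bub3, -0.81 for Bub1, -0.68 for Cenpe and -0.52 for Kif20a. Bub3 was the only one of these with a mean of at least 4. Over all probe sets the median of this 12 h difference was -0.15. For the 48 h change the difference was 2.40 for Smc2 and 0.74 for Birc5. Each of the 6 was lost in at least 1 refit, and with the hybridization-control covariate only Bub3 remained called.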

How the results depend on the processing

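The number of mitosis genes called was 17 for WT 12 h against uninjured, 6 for WT 48 h against uninjured, 0 for Sdc4-/- 12 h against uninjured, 1 for Sdc4-/- 48 h against uninjured, 7 for WT 48 h against 12 h, 4 for Sdc4-/- 48 h against 12 h, 0 between genotypes uninjured, 9 between genotypes at 12 h, 3 between genotypes at 48 h, 4 for the 12 h change between genotypes and 2 for the 48 h change between genotypes. With all 18 arrays it was 7 for WT 12 h against uninjured, 0 for WT 48 h against uninjured, 2 for Sdc4-/- 48 h against 12 h, 1 between genotypes at 48 h, 1 for the 12 h change between genotypes and 1 for the 48 h change between genotypes. With only the groups compared it was 9 for WT 12 h against uninjured, 2 for WT 48 h against 12 h, 1 for Sdc4-/- 48 h against 12 h, 3 between genotypes at 12 h and 1 between genotypes at 48 h. After quantile normalization it was 11 for WT 12 h against uninjured, 1 for WT 48 h against uninjured, 2 for Sdc4-/- 12 h against uninjured, 4 for WT 48 h against 12 h, 1 between genotypes at 48 h and 1 for the 48 h change between genotypes. After the 75th percentile shift it was 16 for WT 48 h against uninjured, 13 for Sdc4-/- 12 h against uninjured, 4 for WT 48 h against 12 h, 11 for Sdc4-/- 48 h against 12 h, 5 between genotypes at 12 h, 13 between genotypes at 48 h, 2 for the 12 h change between genotypes and 4 for the 48 h change between genotypes. Among probe sets averaging 4 or more it was 6 for WT 12 h against uninjured, 2 for Sdc4-/- 12 h against uninjured, 0 for Sdc4-/- 48 h against uninjured, 3 for WT 48 h against 12 h, 3 between genotypes at 12 h, 2 for the 12 h change between genotypes and 1 for the 48 h change between genotypes. Without moderation it was 1 for Sdc4-/- 12 h against uninjured. At the study's threshold it was 6 for WT 12 h against uninjured, 3 for WT 48 h against uninjured, 3 for Sdc4-/- 12 h against uninjured, 0 for Sdc4-/- 48 h against uninjured, 3 for WT 48 h against 12 h, 3 between genotypes at 12 h, 2 for the 12 h change between genotypes and 4 for the 48 h change between genotypes. With the hybridization-control covariate it was 1 for WT 12 h against uninjured, 0 for WT 48 h against uninjured, 1 for Sdc4-/- 12 h against uninjured, 3 for WT 48 h against 12 h, 2 between genotypes at 12 h, 1 between genotypes at 48 h, 1 for the 12 h change between genotypes and 0 for the 48 h change between genotypes. With probe sets averaged within each gene it was 1 for the 12 h change between genotypes. Leaving out 1 array at a time gave 7 to 16 for WT 12 h against uninjured, 1 to 9 for WT 48 h against uninjured, 0 to 3 for Sdc4-/- 12 h against uninjured, 1 to 3 for Sdc4-/- 48 h against uninjured, 5 to 8 for WT 48 h against 12 h, 2 to 5 for Sdc4-/- 48 h against 12 h, 0 to 2 between genotypes uninjured, 5 to 10 between genotypes at 12 h, 1 to 5 between genotypes at 48 h, 4 to 8 for the 12 h change between genotypes and 0 to 4 for the 48 h change between genotypes. Counts not given here were within 1.5 times the value first given. Of 53 calls of single genes, 47 were lost in at least 1 refit and 4 turned round: Kif11 (-0.26), Tpx2 (5.92) and Hmmr (3.39) at 12 h in WT cells with the hybridization-control covariate, and Smc2 (0.41) there in the mean of its probe sets. The causes were not tested. The replicate numbers showed no sign of pairing the arrays: deviations from group means correlated at -0.13 to 0.17 over the 40 pairs with the same number and at -0.19 to 0.19 over the 80 others. In groups of 2 or 3 arrays the deviations depend on each other, so this cannot show that the arrays were unpaired. With the replicate block 13 genes were called for WT 12 h against uninjured, 4 for WT 48 h against uninjured and 7 between genotypes at 12 h. In WT cells at 12 h the hybridization-control level and the group cannot be told apart, and 27 of the 39 genes had a mean under 4, where the array background limits what a change can show.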

Other observations

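On the WT uninjured array that was left out, replicate 3, 3 of the 39 mitosis genes were above 5, against 7 on each of the other 2 WT uninjured arrays. Mki67 was at 7.68 there, above both other uninjured arrays (5.21 and 5.85), whereas Cdca8 was at 2.95 (5.92 and 6.15) and Bub3 at 7.35 (9.52 and 8.90). Its hybridization controls averaged 12.80, between those of the 2 used uninjured WT arrays (7.86 and 8.94) and those of the WT 12 h arrays (13.54 to 14.30).

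Among other cell cycle genes, Rpa1 was higher at 48 h than at 12 h in WT cells by 7.35 (limma, adjusted p = 2.11e-07) and in Sdc4-/- cells by 3.46 (adjusted p = 0.000373). Rrm1 and Lig1 were higher in Sdc4-/- than in WT cells at 48 h, by 2.06 (Rrm1, adjusted p = 0.0245) and 1.90 (Lig1, adjusted p = 0.0273). No refit was made for these genes.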
